A study of Mus musculus with 4 samples.

Results

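The genes of the cytosolic ribosome were taken as the table entries whose symbol is Rpl or Rps followed by a subunit number, or by p0, p1 or p2 for the stalk. This naming rule found 84 of the 13976 genes in the table. Of these, 76 encode core ribosomal proteins, 30 in the small subunit and 46 in the large subunit, 3 of which form the stalk. A further 4 are coding paralogs of a core gene (Rpl22l1, Rps27l, Rpl36al and Rpl7l1), and 4 are rows annotated as pseudogenes (Rps3a2, Rps3a3, Rps4l and Rpl6l). At least 10 CPM (the authors' read counts, scaled to library size) was reached in any library by 82 of the 84 genes and at least 100 CPM by 75. No member was listed at 0 in a library. The core genes Rpsa, Fau and Rack1 fall outside the naming rule and are no members, and Rpl3l, Rpl10l and Rpl39l were not analysed here.

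RNA was sequenced from 4 sorted populations of mouse EO771 tumours (EO771 is a mammary carcinoma line), and each population had 1 library. The first, labelled as dendritic cells (DC) positive for CD11b with an intermediate level of CD103, is named CD103int DC here. It was compared with conventional DC of type 1 (cDC1), labelled CD103+, with conventional DC of type 2 (cDC2), labelled CD11b+, and with tumour macrophages. The labels give no sort gates, no number of mice or cells for a library, no strain, sex or age, and no treatment, so it is not known here whether the mice had received the hetIL-15 of the title. With 1 library for a population, no difference below was checked against replicate error and none was tested. In bulk RNA, a lower share of a transcript from fewer cells of a type and one from less RNA per cell cannot be told apart.

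Each ribosome holds 1 copy of nearly every core protein, and the cell makes these proteins in matched amounts. The mRNAs of most of them begin with a run of pyrimidines at the 5′ end, called the TOP motif, through which mTOR and the RNA-binding protein Larp1 set their translation and stability together. In dendritic cells and macrophages, activation and growth are known to be accompanied by shifts in protein synthesis. Several members also have a paralog, and some of these paralogs are known to be expressed in a tissue-dependent way.

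The start regions of 8 members are shown because these members lay at the ends of the comparisons below or far from the rest of the set, and because the start holds the pyrimidine run. Each is a stretch of 50 bases, 30 before the RefSeq gene start and 20 after it, in build GRCm38.p6, 5′ to 3′ on the strand of the gene. Capitals mark the motif CTTTCC and likewise the motif CTCTTT and the motif CTTTTC.
Rps26, chr10:128626487-128626536, minus strand: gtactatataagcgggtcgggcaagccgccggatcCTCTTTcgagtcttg
Rpl12, chr2:32961682-32961731, plus strand: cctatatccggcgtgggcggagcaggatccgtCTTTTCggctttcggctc
Rpl14, chr9:120571487-120571536, plus strand: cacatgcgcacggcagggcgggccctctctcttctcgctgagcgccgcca
Rpl13a, chr7:45128726-45128775, minus strand: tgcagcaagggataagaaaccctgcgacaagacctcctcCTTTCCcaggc
Rps27, chr3:90213629-90213678, minus strand: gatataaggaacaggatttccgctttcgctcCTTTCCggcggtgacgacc
Rps9, chr7:3704011-3704060, plus strand: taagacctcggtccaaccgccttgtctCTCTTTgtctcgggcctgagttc
Rpl36a, chrX:134585624-134585673, plus strand: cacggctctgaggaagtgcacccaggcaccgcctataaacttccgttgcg
Rps27l, chr9:66946056-66946105, plus strand: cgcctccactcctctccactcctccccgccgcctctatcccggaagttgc

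A RefSeq start sequence was matched for 60 of the 84 members. Within 30 bases on each side of the start, on the strand of the gene, CTTTCC was found in 11 of the 60 members (18.3%), against 3.4% of all 27025 genes with a sequence. CTCTTT was found in 11 members (18.3%), against 2.68% of all genes, and CTTTTC in 6 members, against 2.47% of all genes. At least 1 of these 3 motifs, which can overlap each other, stood in 22 members (36.7%), against 7.6% of all genes. On the opposite strand the shares were 8.33% of members and 7.34% of all genes. The excess among members thus lay on the strand of the gene. Of the 8 regions shown, Rps26 and Rps9 held CTCTTT, Rps27 and Rpl13a held CTTTCC and Rpl12 held CTTTTC, while Rpl14, Rpl36a and Rps27l held none of the 3 in the 50 bases. Whether these motifs went with the differences below was not tested.

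Read depth was estimated from the smallest step between values, at 55960100 reads in the CD103int DC library, 44425900 in cDC1, 44940500 in cDC2 and 63817500 in macrophages. The columns summed to between 905670 (cDC1) and 1169346 (macrophage), so levels carry the authors' scaling between libraries. The name of the macrophage column starts differently from the other 3, and if that marks a batch, batch and population cannot be told apart. The 9 cDC1 markers summed to 755, 2949, 638 and 852 CPM in the CD103int DC, cDC1, cDC2 and macrophage libraries, and were thus highest in the library labelled cDC1. The 11 macrophage markers summed to 2420, 686, 4063 and 3848 CPM, so that this sum did not set the library labelled macrophage above the one labelled cDC2. Between cDC2 and macrophages, 5 of the 11 were at least 1.5-fold higher in cDC2 and 3 lower, against 7.42% and 16.9% of all genes. Between CD103int DC and macrophages, 4 were higher in CD103int DC and 6 lower, against 12.2% and 19.0%. Between CD103int DC and cDC1, 10 were higher in CD103int DC and 0 lower, against 17.2% and 12.1%. The CD103int DC and cDC2 libraries thus carried macrophage markers well above the cDC1 library. C1qa (228, 36.7, 572 and 105 CPM) and C1qb (328, 49.1, 631 and 137 CPM) were highest in cDC2. Fcgr1 (173, 76.5, 334 and 608 CPM) and Csf1r (925, 409, 1096 and 1538 CPM) were highest in macrophages. Itgae, which encodes CD103, stood at 13.2, 77.0, 1.10 and 5.50 CPM, lower in CD103int DC than in cDC1 and above cDC2. The 8 cDC2 markers summed to 2724, 1393, 2338 and 2562 CPM, a sum that did not single out the library labelled cDC2. The 7 markers shared by conventional DC summed to 16228, 12015, 16125 and 7093 CPM, most of it Cd74 and H2-Ab1. Of these 7, 1 was at least 1.5-fold higher in CD103int DC than in cDC1 and 4 lower, against 17.2% and 12.1% of all genes. The 4 were Flt3, Zbtb46, Kit and Bcl11a (28.4, 354, 26.9 and 32.8 CPM for Bcl11a), all highest in cDC1. Between cDC2 and macrophages, 3 of the 7 were higher in cDC2 and 1 lower, against 7.42% and 16.9%. The sums of T cell, NK cell, fibroblast and neutrophil markers lay between 1.10 and 45.4 CPM in each library. The 4 plasmacytoid DC markers with a row summed to 129, 665, 165 and 254 CPM, the 2 B cell markers to 23.8, 150.4, 33.6 and 76.7 CPM, and the 3 epithelial markers, nearly all of it Cdh1, to 199.8, 425, 120.1 and 89.9 CPM. These 3 sums were highest in cDC1, and their part in the results below was not tested.

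Ribosomal protein transcripts took the largest share of the CD103int DC library and the smallest of the macrophage library. The 84 genes summed to 39983 CPM in CD103int DC, 32687 CPM in cDC1, 37910 CPM in cDC2 and 27907 CPM in macrophages. As a share of the column total, which does not depend on the scaling between libraries, this was 4.10% in CD103int DC, 3.61% in cDC1, 3.91% in cDC2 and 2.39% in macrophages. The macrophage share was thus well below that of all 3 DC libraries, while the DC libraries lay close to each other. Counting error is small at this depth, with 95% Wilson intervals that run between 4.097% and 4.108% for CD103int DC and between 2.383% and 2.390% for macrophages, and it does not cover differences between mice, sorts or libraries. The median member stood at 457 CPM in CD103int DC, 347 CPM in cDC1, 438 CPM in cDC2 and 316 CPM in macrophages.

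**Figure D1:**
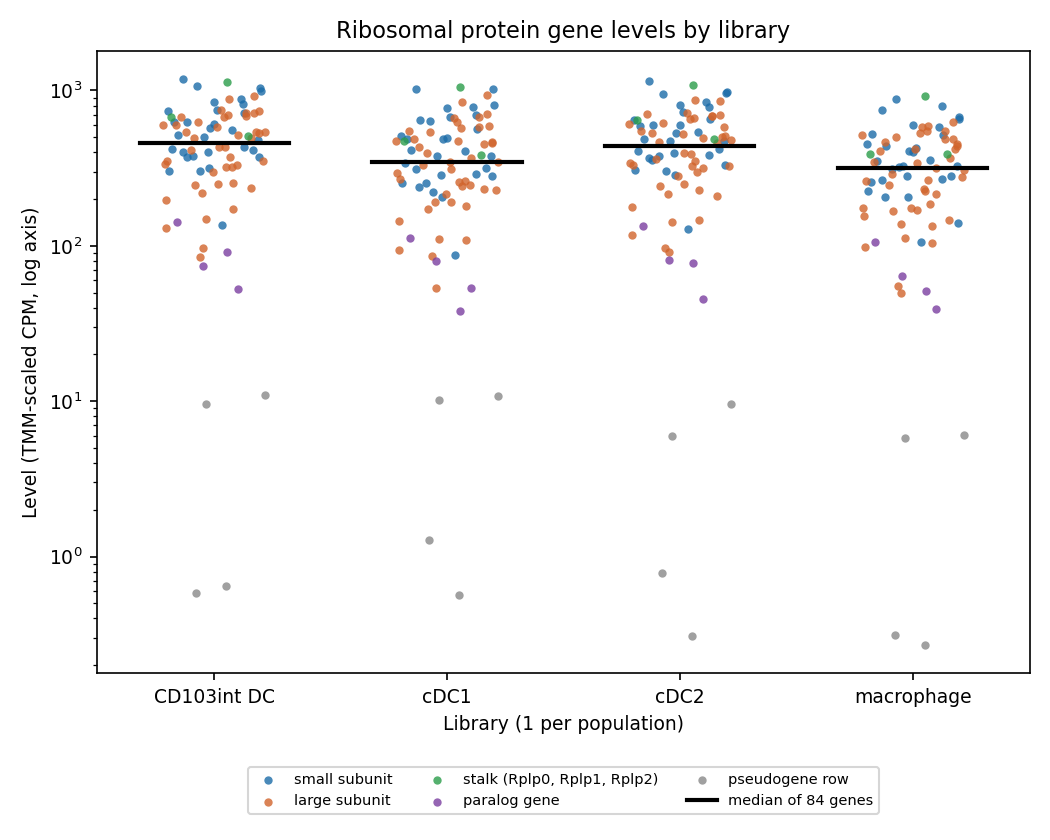
The level of each of the 84 genes in TMM-scaled CPM on a log axis (1 point per gene, coloured by class), with the CD103int DC, cDC1, cDC2 and macrophage libraries from left to right and a bar at the median. The medians are 457, 347, 438 and 316 CPM, most coding members lie above 100 CPM in all 4 libraries, and the 4 pseudogene rows lie lowest.

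Other parts of the libraries also differed, though not in this order. The 2 gene models that collect ribosomal RNA reads (Gm26917 and Gm42418) held 7.08% of the CD103int DC, 12.5% of the cDC1, 5.94% of the cDC2 and 11.3% of the macrophage column. Mitochondrially encoded genes held 6.61%, 7.34%, 8.55% and 5.90% in the same order of libraries. With both left out of the total, ribosomal protein genes held 4.75% of the CD103int DC, 4.50% of the cDC1, 4.58% of the cDC2 and 2.88% of the macrophage library. The gap between CD103int DC and cDC1 was then narrower, and the macrophage library remained the lowest. The part of ribosomal RNA carry-over in these levels was not tested further.

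Most members were highest in CD103int DC and lowest in macrophages. Of the 82 members that reached 10 CPM, 65 had their highest value in CD103int DC, against 18.2% of all 8724 genes that reached 10 CPM. The cDC2 library was highest for 10 members, against 12.3% of all genes, the cDC1 library for 6, against 31.1%, and the macrophage library for 1, against 38.3%. The lowest value was in macrophages for 65 members, against 28.1% of all genes, and in cDC1 for 17, against 38.7%. The CD103int DC and cDC2 libraries were lowest for no member, against 15.9% and 17.3% of all genes. When all columns were set to the same total, the CD103int DC library was highest for 58 members and cDC1 for 14, and macrophages were lowest for 79. With the totals set equal after leaving out ribosomal protein, mitochondrial and ribosomal RNA entries, these counts were 49, 23 and 80.

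The balance between the subunits was close to equal across the 4 libraries. Small-subunit genes made up 44.8% of the summed CPM of the 76 core genes in CD103int DC, 44.1% in cDC1, 44.9% in cDC2 and 44.7% in macrophages. Per kilobase of transcript, which allows genes to be compared with each other, the 5 highest members on average over the libraries were Rps28, Rps14, Rpl41, Rplp1 and Rplp2. Rps28, a small-subunit protein, stood at 1767 CPM per kb in CD103int DC, 1406 in cDC1, 1733 in cDC2 and 1210 in macrophages. Rpl5 was the lowest core gene on this scale, at 41.4, 42.3, 47.3 and 26.9 CPM per kb. The transcript length behind it was 2045 bases, the longest used for a core gene of the large subunit, so its level per kb depends on that choice of transcript.

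The CD103int DC library was compared with the macrophage library first, where the set differed most. Differences are given on log2(CPM + 1), CD103int DC minus macrophage. The median over 81 members was 0.55, against -0.07 for all 8254 genes compared, and 80 of 81 members lay above the median of all genes. At least 1.5-fold higher levels in CD103int DC were seen for 36 of 81 members, against 12.2% of all genes, and at least 1.5-fold lower levels for 0, against 19.0%. Small-subunit genes (median 0.56, 30 genes) and large-subunit genes (median 0.55, 46 genes) lay close together. With every column set to the same total, the median of all genes became 0.20 and that of members 0.81, and 23.6% of all genes were at least 1.5-fold higher and 11.1% lower. The distance of members from all genes was 0.62 in both scalings.

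Rps26, a small-subunit protein at the exit channel of the mRNA, had the largest difference in this comparison. It stood at 372 CPM in CD103int DC, 282 CPM in cDC1, 333 CPM in cDC2 and 140 CPM in macrophages. All 3 DC libraries lay above the macrophage library, and CD103int DC stood 2.66-fold above it (95% counting interval 2.59 to 2.73). It was the only member at least 2-fold higher in CD103int DC than in macrophages, against 4.35% of all genes, and 0 members were 2-fold lower, against 8.31%. Rps26 (chr10:128624534-128626747, minus strand, GRCm38) is a coding gene, and the 1 row named as its copy, Rps26-ps1, stood at 1.14 to 2.51 CPM in the 4 libraries.

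Rpl36a and Rpl12 were next in size. Rpl36a, a large-subunit protein at the exit site for tRNA, stood at 97.0 CPM in CD103int DC, 53.2 CPM in cDC1, 91.1 CPM in cDC2 and 49.9 CPM in macrophages. The CD103int DC and cDC2 libraries were high and the cDC1 and macrophage libraries low for this gene. Rpl12, which sits at the base of the stalk, stood at 337 CPM in CD103int DC, 297 CPM in cDC1, 342 CPM in cDC2 and 176 CPM in macrophages. For Rpl12 the macrophage library alone was low. It overlaps Lrsam1 on the opposite strand, which had 4.9 to 10.4 CPM.

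At the other end of this comparison were Rps27, Rps9 and Rpl19. Rps27, a zinc-finger protein of the small subunit, stood at 302 CPM in CD103int DC, 223 CPM in cDC1, 305 CPM in cDC2 and 323 CPM in macrophages. It was the only member with its highest value in macrophages, and its difference of -0.10 became 0.16 with every column set to the same total. Rps9, an early-binding small-subunit protein, stood at 817 CPM in CD103int DC, 690 CPM in cDC1, 786 CPM in cDC2 and 793 CPM in macrophages. Rpl19, a large-subunit protein, stood at 603, 475, 605 and 521 CPM in the same order of libraries. For these 3 genes cDC1 was the lowest library as deposited, but at equal column totals Rps9 and Rpl19 were higher in cDC1 than in macrophages, by 0.17 and 0.24.

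**Figure D2:**
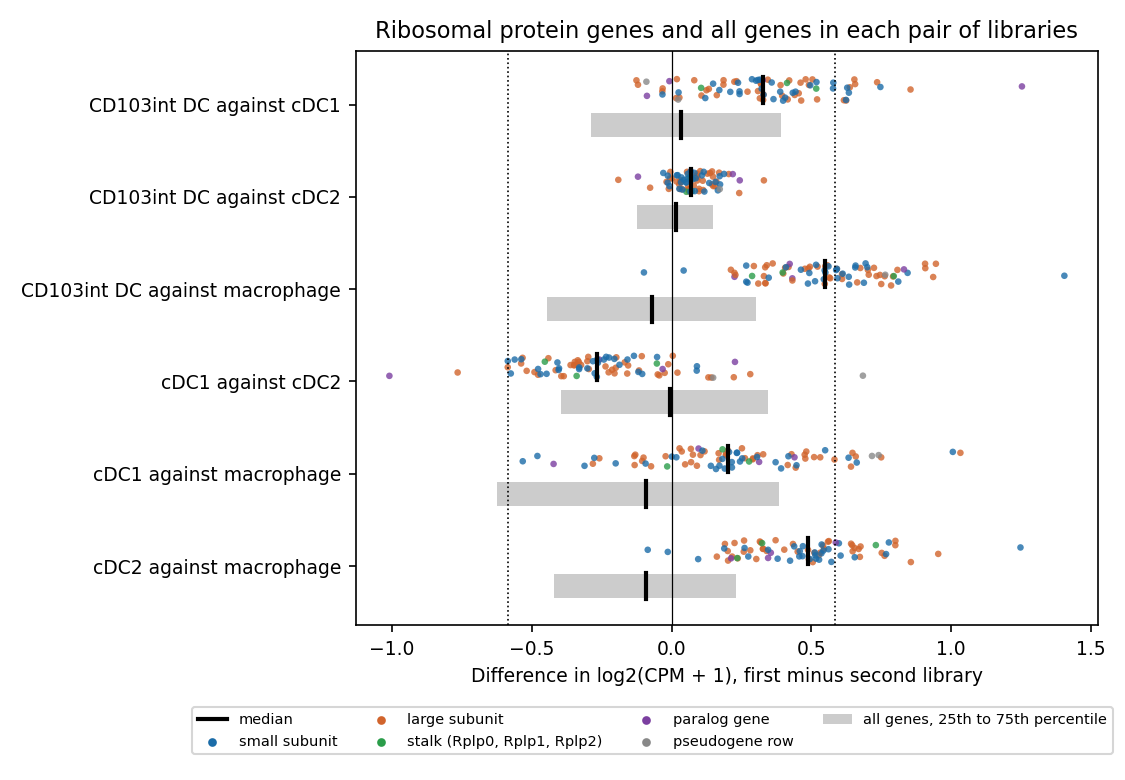
Differences in log2(CPM + 1), first minus second library, for the members with at least 10 CPM in the higher library (points, coloured by class) in all 6 pairs of libraries, above grey bars for the 25th to 75th percentile of all genes, with medians as black ticks and dotted lines at 1.5-fold. In the CD103int DC against macrophage and cDC2 against macrophage pairs, nearly all points lie to the right of the tick for all genes, and in the CD103int DC against cDC2 pair they lie close to 0.

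Between CD103int DC and cDC1 the set differed less. The median difference over 82 members was 0.33, CD103int DC minus cDC1, against 0.03 for all 8443 genes, and 69 of 82 lay above the median of all genes. At least 1.5-fold higher levels in CD103int DC were seen for 12 of 82 members, against 17.2% of all genes, a share no larger than the background. At least 1.5-fold lower levels were seen for 0 members, against 12.1% of all genes. The 12 members higher in CD103int DC included Rpl32, Rpl34, Rpl36a, Rpl37a, Rpl41, Rps14, Rps21 and Rps27l. At equal column totals, 4 members were at least 1.5-fold higher in CD103int DC, against 14.3% of all genes, and the median became 0.22, against -0.08 for all genes.

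Rps27l had the largest difference between CD103int DC and cDC1. This paralog of Rps27 is known from human cells as a target of p53. It stood at 91.9 CPM in CD103int DC, 38.0 CPM in cDC1, 77.4 CPM in cDC2 and 51.2 CPM in macrophages, so that the CD103int DC and cDC2 libraries were high and cDC1 was lowest as deposited. CD103int DC stood 2.42-fold above cDC1 (95% counting interval 2.29 to 2.55), the only member at least 2-fold higher in that comparison, against 9.16% of all genes, while 0 were 2-fold lower, against 5.46%. Rps27 itself stood at 302 CPM in CD103int DC and 223 CPM in cDC1, a difference of 0.43.

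Rps14 followed after Rpl36a in this comparison. Rps14 is a small-subunit protein whose human gene is known for its loss in a form of myelodysplastic syndrome. It stood at 1063 CPM in CD103int DC, 633 CPM in cDC1, 943 CPM in cDC2 and 883 CPM in macrophages, lowest in cDC1 as deposited. At equal column totals the Rps14 difference between cDC1 and macrophages was -0.11, against -0.48 as deposited. Its row overlaps Ndst1 on the opposite strand, which went the other way with 40.5, 102, 61.2 and 57.2 CPM. The members with the lowest differences were Rpl14 and Rpl13a, both of the large subunit. Rpl14 stood at 435 CPM in CD103int DC, 475 CPM in cDC1, 390 CPM in cDC2 and 231 CPM in macrophages. Rpl13a, known from human monocytes as part of a complex that silences inflammatory mRNAs, stood at 543, 590, 506 and 422 CPM. Both were highest in cDC1.

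The coding sequences of Rps27 and Rps27l are shown because the reads of both genes must be told apart for these values to hold. They are the coding parts of GENCODE M21 transcripts (GRCm38), 5′ to 3′, with capitals at the bases that differ from the paralog.
Rps27: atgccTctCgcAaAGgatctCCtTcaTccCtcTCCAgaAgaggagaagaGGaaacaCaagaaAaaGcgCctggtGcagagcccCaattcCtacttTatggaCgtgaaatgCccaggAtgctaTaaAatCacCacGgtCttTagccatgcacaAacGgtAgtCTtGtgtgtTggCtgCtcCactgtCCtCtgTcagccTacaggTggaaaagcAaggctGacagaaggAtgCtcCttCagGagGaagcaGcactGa
Rps27l: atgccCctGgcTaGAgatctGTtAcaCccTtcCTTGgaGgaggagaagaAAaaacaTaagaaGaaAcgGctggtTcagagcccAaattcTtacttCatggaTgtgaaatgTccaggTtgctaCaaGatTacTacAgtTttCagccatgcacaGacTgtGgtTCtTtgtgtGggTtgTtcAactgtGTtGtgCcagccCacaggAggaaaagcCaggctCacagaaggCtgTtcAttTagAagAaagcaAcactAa

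Rps27 and Rps27l share 194 of 255 coding bases (76.1%), and 53 of the 61 differences fall on the last base of a codon. Rpl36a and Rpl36al share 282 of 321 bases (87.9%), with 35 of the 39 differences on the last base of a codon. The differences run along the whole coding sequence in both pairs. How the authors' counting treated reads that match more than 1 gene is not given in the sources used here. In each of these pairs of paralogs, the gene with the larger difference between CD103int DC and cDC1 was not the more abundant gene. This did not hold between cDC1 and macrophages, with -0.53 for Rps27 and -0.42 for Rps27l. Rpl36al stood at 142 CPM in CD103int DC, 113 CPM in cDC1, 135 CPM in cDC2 and 105 CPM in macrophages, and its difference between CD103int DC and cDC1 was 0.33, against 0.85 for Rpl36a. The processed copy Rpl36a-ps2 stood at 64.2, 46.7, 60.4 and 36.2 CPM, close to the level of Rpl36a itself, so Rpl36a is uncertain.

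Between CD103int DC and cDC2 the set was nearly the same. The median difference over 81 members was 0.07, CD103int DC minus cDC2, against 0.02 for all 8119 genes. No member was at least 1.5-fold higher or lower, against 4.22% and 2.99% of all genes, and for 2-fold the shares of all genes were 1.56% and 0.665%. The differences ran from -0.19 for Rpl5 to 0.33 for Rpl41. Rpl41, the smallest ribosomal protein, stood at 735 CPM in CD103int DC, 467 CPM in cDC1, 584 CPM in cDC2 and 451 CPM in macrophages. Rpl36 stood at 173, 110, 146 and 104 CPM and Rpl23 at 671, 487, 708 and 406 CPM, at the upper and lower end of this comparison. Rpl5 stood at 84.6, 86.5, 96.7 and 55.1 CPM and overlaps Fam69a on the opposite strand. With Rpl11, Rpl5 forms a particle that is known to bind Mdm2. Rpl11 stood at 351 CPM in CD103int DC, 268 CPM in cDC1, 330 CPM in cDC2 and 263 CPM in macrophages.

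Rpl41 is shown whole because it is the shortest coding sequence of the set and lay at the top of the CD103int DC against cDC2 comparison. It is from GENCODE M21 (GRCm38), 5′ to 3′, with the start and stop codons in capitals.
Rpl41: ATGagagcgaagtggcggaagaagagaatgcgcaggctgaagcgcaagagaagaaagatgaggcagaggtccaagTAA

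The other 3 pairs did not involve the CD103int DC library. Between cDC1 and cDC2 the median over 82 members was -0.27, cDC1 minus cDC2, against -0.01 for all 8459 genes, and 71 of 82 members were lower in cDC1. Rps3a2 was the 1 member at least 1.5-fold higher in cDC1, against 14.9% of all genes, and Rpl36a, Rpl37a, Rps23 and Rps27l were the 4 at least 1.5-fold lower, against 17.7%. At equal column totals these counts were 1 and 2, and after leaving out ribosomal protein, mitochondrial and ribosomal RNA entries they were 1 and 1. Rps3a2 is a row annotated as a pseudogene, at 9.54 CPM in CD103int DC, 10.2 CPM in cDC1, 5.98 CPM in cDC2 and 5.82 CPM in macrophages. Rpl37a stood at 582 CPM in CD103int DC, 349 CPM in cDC1, 524 CPM in cDC2 and 418 CPM in macrophages. Rps27l was the 1 member at least 2-fold lower in cDC1, against 9.56% of all genes, and 0 were 2-fold higher, against 7.27%.

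Between cDC1 and macrophages the median over 82 members was 0.20, cDC1 minus macrophage, against -0.09 for all 8468 genes. At least 1.5-fold higher levels in cDC1 were seen for 10 members, against 18.3% of all genes, and at least 1.5-fold lower levels for 0, against 26.5%. Rpl14 (475 CPM in cDC1 and 231 CPM in macrophages) and Rps26 (282 and 140 CPM) were the 2 members at least 2-fold higher in cDC1, against 9.21% of all genes, and 0 were 2-fold lower, against 15.8%. At equal column totals, 33.2% of all genes were at least 1.5-fold higher and 16.3% lower, and 38 members were higher. Rps27, Rps14 and Rps27l had the lowest differences, at -0.53, -0.48 and -0.42, which became -0.16, -0.11 and -0.06 at equal column totals. The sign of Rps27l turned to 0.01 in the scaling without ribosomal protein, mitochondrial and ribosomal RNA entries.

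Between cDC2 and macrophages the median over 80 members was 0.49, cDC2 minus macrophage, against -0.09 for all 8141 genes, and all 80 lay above the median of all genes. At least 1.5-fold higher levels in cDC2 were seen for 21 members, against 7.42% of all genes, and lower levels for 0, against 16.9%. With every column set to the same total, 61 members and 19.2% of all genes were at least 1.5-fold higher in cDC2, and 8.68% of all genes lower. Rps27 and Rps9 had the lowest differences, at -0.085 and -0.014, and both turned positive at equal column totals (0.19 and 0.26). Rps26 was the 1 member at least 2-fold higher in cDC2, against 1.78% of all genes, and 0 were 2-fold lower, against 6.01%. The comparisons that share the macrophage library are not independent of each other, and the same holds for each other library.

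The make-up of the ribosomal protein pool was compared by setting each member against the median member, which removes the scaling between libraries. Between CD103int DC and cDC2, 0 of 81 members lay 1.25-fold or more off the median member, against 18.9% of all genes off the median gene. Between CD103int DC and cDC1 it was 14 of 82, against 52.1% of all genes, and between CD103int DC and macrophages 10 of 81, against 55.6%. For cDC1 against macrophages it was 24 of 82, against 65.3%, for cDC1 against cDC2 11 of 82, against 54.7%, and for cDC2 against macrophages 7 of 80, against 50.3%. Members thus kept closer to their own median than genes in general did to theirs, and least so between cDC1 and macrophages.

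A few genes set the pools apart. Rps26 made up 0.929% of the pool in CD103int DC, 0.861% in cDC1, 0.879% in cDC2 and 0.501% in macrophages. Rps27 made up 0.755%, 0.683%, 0.804% and 1.158% in the same order of libraries, and Rps9 2.04%, 2.11%, 2.07% and 2.84%. For these 3 genes the macrophage pool stood apart from the 3 DC pools. Rpl14 made up 1.09% in CD103int DC, 1.45% in cDC1, 1.03% in cDC2 and 0.829% in macrophages. Rpl4, the core member with the longest coding sequence, made up 2.29%, 2.86%, 2.25% and 2.24%, and was high in the cDC1 pool alone. Rps27l made up 0.230% of the CD103int DC pool, the highest of the 4, and 0.116% of the cDC1 pool.

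**Figure D3:**
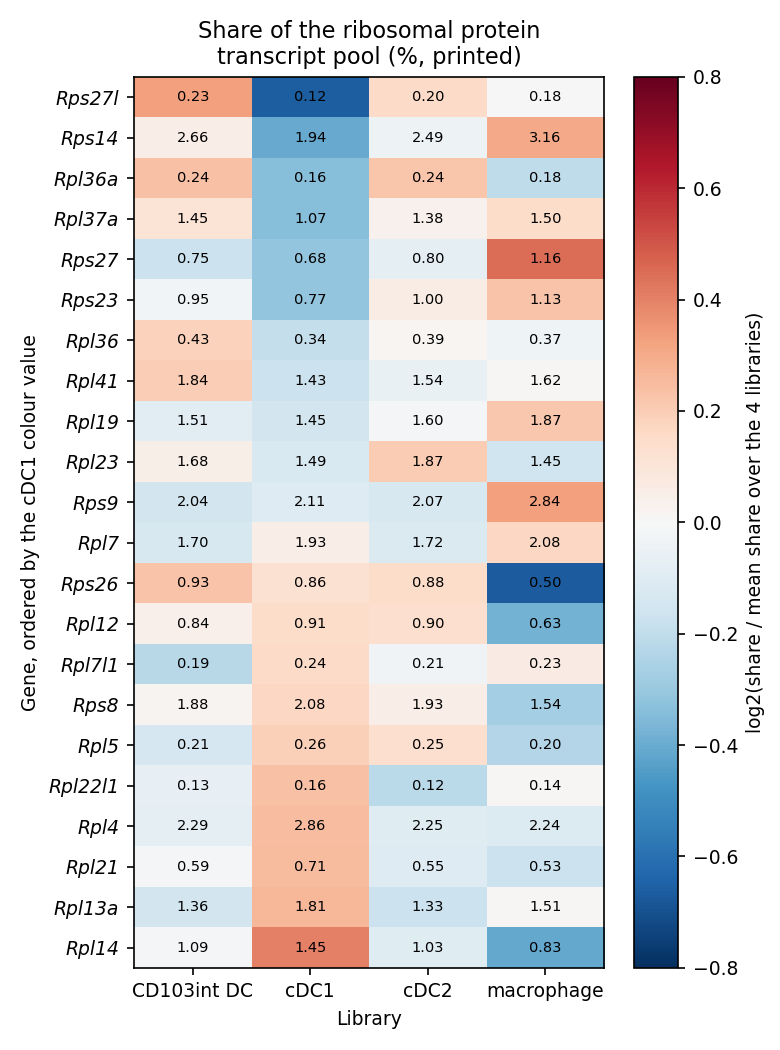
Share of the summed ribosomal protein transcripts held by members that departed among the most in any library (rows), in the CD103int DC, cDC1, cDC2 and macrophage libraries (columns from left to right), with the percentage printed and the colour giving log2 of the share over its mean across the 4 libraries. Rps26 is red in the 3 DC libraries and blue in macrophages at 0.50%, and Rps27l is blue in cDC1 at 0.12%.

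The difference between CD103int DC and cDC1 went with the length of the gene. Over the 76 core genes, Spearman's rho between coding length and the difference was -0.71 for CD103int DC against cDC1 and 0.69 for cDC1 against cDC2. It was -0.13 for CD103int DC against cDC2 and -0.16 for CD103int DC against macrophages. In groups by transcript length, the median difference between CD103int DC and cDC1 was 0.52 for the 25 shortest core genes, 0.34 for the 25 in the middle and 0.16 for the 26 longest. The medians of other coding genes fell in the same direction. They were 0.33 for 231 genes of up to 700 bases, 0.15 for those over 700 and up to 1500 bases, 0.03 for those up to 3000 bases and -0.03 for longer ones. Gene by gene the relation was weaker there. With transcript length, rho was -0.60 over the core genes and -0.12 over 8127 other coding genes. By these medians, short members and other short coding genes were both lower in cDC1 than in CD103int DC. The correlations run across genes of the same pair of libraries, which share depth and library, and the level of the gene also moved with the difference (rho -0.44 for CD103int DC against cDC1). The part of length in the cDC1 values was not tested.

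Between CD103int DC and macrophages the length of the member made little difference. The median difference between CD103int DC and macrophages was 0.55 in the shortest, 0.52 in the middle and 0.57 in the longest group of the core genes. Among other coding genes the median was 0.41 for 236 genes of up to 700 bases, 0.14 for those over 700 and up to 1500 bases, -0.03 for those up to 3000 bases and -0.18 for longer ones. Between cDC1 and macrophages it did differ by length, with medians of 0.11, 0.17 and 0.40 for the shortest, middle and longest groups (rho 0.38 with coding length), while between cDC2 and macrophages they were 0.49, 0.46 and 0.52. For CD103int DC against macrophages, the longest group, of 851 to 3706 bases, thus lay above other coding genes of every length group, while the shortest group lay closer to other genes of up to 700 bases. The part of length in the macrophage values was not tested either.

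**Figure D4:**
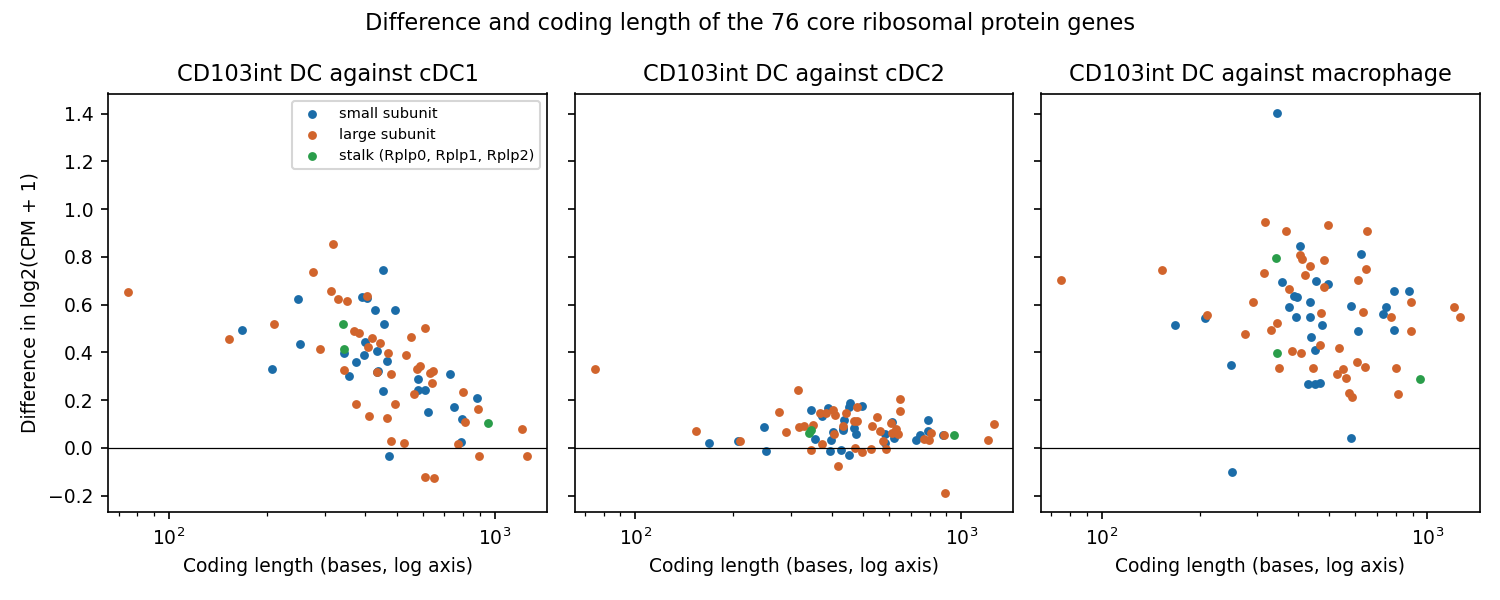
Difference in log2(CPM + 1) of the 76 core genes (points, coloured by subunit) against coding length in bases on a log axis, for CD103int DC against cDC1 (left), cDC2 (middle) and macrophages (right). In the left panel the points fall with length (rho -0.71), in the middle panel they lie flat near 0, and in the right panel they lie near 0.55 at all lengths.

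The members with other known roles named here were highest in CD103int DC as deposited, and all but Rps27a were lowest in macrophages. Rps6, the target of the S6 kinases, stood at 877 CPM in CD103int DC, 779 CPM in cDC1, 846 CPM in cDC2 and 583 CPM in macrophages. Rps19, whose human gene is mutated in Diamond-Blackfan anaemia, stood at 501, 378, 476 and 328 CPM. Both were highest in CD103int DC and lowest in macrophages, except that Rps6 was lower in CD103int DC than in cDC1 (-0.037) in the scaling without ribosomal protein, mitochondrial and ribosomal RNA entries. Rps27a, made as a fusion with ubiquitin, stood at 630, 489, 595 and 522 CPM, with cDC1 lowest as deposited but 0.28 above macrophages at equal column totals. Rps3, of the small subunit at the mRNA entry, stood at 996, 804, 973 and 675 CPM, and its row holds the snoRNA rows Snord15a and Snord15b. Rpl10, which joins the large subunit late, stood at 694, 575, 667 and 548 CPM. Rpl38, known in mouse for its part in the translation of Hox mRNAs, stood at 248, 172, 243 and 168 CPM. Rpl39, at the tunnel through which the new chain leaves, stood at 297, 216, 283 and 177 CPM.

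The stalk proteins bind the elongation factors. Rplp0 stood at 1128 CPM in CD103int DC, 1048 CPM in cDC1, 1087 CPM in cDC2 and 924 CPM in macrophages. Rplp1 stood at 673, 470, 644 and 388 CPM and Rplp2 at 512, 384, 486 and 388 CPM. The 3 stalk genes thus differed in size, with Rplp0 the flattest and Rplp1 the steepest against macrophages (differences of 0.29 and 0.79).

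The coding paralogs Rpl22l1 and Rpl7l1 did not share the common order. Rpl22, which is known in mouse for its part in T cell development and for holding down Rpl22l1, stood at 131 CPM in CD103int DC, 93.6 CPM in cDC1, 118 CPM in cDC2 and 98.5 CPM in macrophages. Rpl22l1 stood at 52.9, 53.2, 45.3 and 39.0 CPM. Rpl22 was thus lower in cDC1 than in CD103int DC while Rpl22l1 was not. Rpl7l1, known for its part in building the large subunit, stood at 74.7 CPM in CD103int DC, 79.5 CPM in cDC1, 81.3 CPM in cDC2 and 63.8 CPM in macrophages. Rps4x stood at 1039, 1021, 960 and 658 CPM and the pseudogene row Rps4l at 10.9, 10.7, 9.59 and 6.03 CPM. Both were highest in CD103int DC as deposited and fell below cDC1 at equal column totals (-0.081 and -0.074).

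Copies and overlapping genes limit single values more than they limit the set. The table held 49 rows named as copies of ribosomal protein genes (symbol ending in -ps and a number). They summed to 1103 CPM in CD103int DC, 1023 CPM in cDC1, 1013 CPM in cDC2 and 919 CPM in macrophages. The 4 pseudogene rows among the members are not in this count, and copies under other names were not searched. By name the 49 rows cover 32 of the members, and 13 rows averaged at least 10 CPM. Rps23-ps1 stood at 305, 232, 302 and 258 CPM beside Rps23 at 378, 253, 380 and 314 CPM, and Rpl31-ps8 at 177, 165, 161 and 121 CPM beside Rpl31 at 219, 193, 216 and 138 CPM. Reads of Rps23 and Rpl31 may thus be split between gene and copy, and their levels are uncertain. Rows of 19 members overlap another row, 4 on the same strand and 15 on the opposite strand, and the strand setting of the counting is not given in the sources used here, so reads of opposite genes may not have been told apart.

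The wider machinery of protein synthesis was compared through gene lists, which were chosen with earlier results of these data known. Against macrophages most of these lists lay higher in CD103int DC, and against cDC1 and cDC2 most lay near the median of all genes. Rpsa, a core gene outside the naming rule, stood at 1117 CPM in CD103int DC, 1039 CPM in cDC1, 987 CPM in cDC2 and 745 CPM in macrophages. Fau, also outside the rule and made as a fusion with a ubiquitin-like protein, stood at 621, 455, 629 and 637 CPM, so like Rps27 it was not low in macrophages as deposited.

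Mitochondrial ribosomal proteins, which serve a separate ribosome, had medians of 0.17 against cDC1 (73 genes) and -0.0003 against cDC2 (74 genes). Against macrophages their median was 0.32, and 20 of 72 were at least 1.5-fold higher in CD103int DC and 0 lower, against 12.2% and 19.0% of all genes. Other TOP mRNAs had medians of 0.07, 0.10 and 0.57 over 16 genes, with 7 of 16 at least 1.5-fold higher in CD103int DC than in macrophages, against 12.2% of all genes. Among them, Eef1a1, which brings tRNA to the ribosome, stood at 6744 CPM in CD103int DC, 6544 CPM in cDC1, 7103 CPM in cDC2 and 5685 CPM in macrophages. Eef2, which moves the ribosome along the mRNA, stood at 2668, 2598, 2460 and 1800 CPM. The DC libraries lay close together for both genes. Elongation factors, which share genes with that list, had medians of 0.04, 0.07 and 0.57, and 29 initiation factors 0.12, 0.03 and 0.20.

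The 37 ribosome biogenesis genes had medians of -0.05 against cDC1, 0.04 against cDC2 and 0.46 against macrophages. Of these, 14 were at least 1.5-fold higher in CD103int DC than in macrophages and 0 lower, against 12.2% and 19.0% of all genes. Between CD103int DC and cDC1, 0 were higher and 2 lower in CD103int DC, against 17.2% and 12.1%. Npm1, a nucleolar chaperone, stood at 295 CPM in CD103int DC, 304 CPM in cDC1, 271 CPM in cDC2 and 169 CPM in macrophages. For Npm1 cDC1 was as high as CD103int DC, unlike for most ribosomal protein genes. Between cDC1 and macrophages 17 of 37 biogenesis genes were at least 1.5-fold higher in cDC1 and 1 lower, against 18.3% and 26.5%. RNA polymerase I genes had medians of 0.00, -0.05 and 0.12 over 10 genes. Regulators of ribosomal protein synthesis had medians of -0.04, 0.07 and -0.04. Among these, Larp1 stood at 241, 236, 209 and 317 CPM and Myc at 43.9, 22.3, 47.7 and 24.5 CPM, so that Myc was high in the CD103int DC and cDC2 libraries. Of 15 regulators, 3 were at least 1.5-fold higher in CD103int DC than in cDC1 and 0 lower, against 17.2% and 12.1% of all genes. Besides Myc these were Eif4ebp1 (38.4, 20.2, 37.8 and 36.2 CPM) and Tsc1 (24.3, 14.5, 23.0 and 25.9 CPM), which were not low in macrophages.

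The proliferation markers also moved with the set against macrophages. The 17 markers, none of them at 0, summed to 965 CPM in CD103int DC, 1071 CPM in cDC1, 580 CPM in cDC2 and 381 CPM in macrophages. Their sum was highest in cDC1. Ribosomal protein genes held 3.61% of the cDC1 column, against 4.10% in CD103int DC, 3.91% in cDC2 and 2.39% in macrophages. The part of proliferation in the ribosomal protein levels was not tested.

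**Figure D5:**
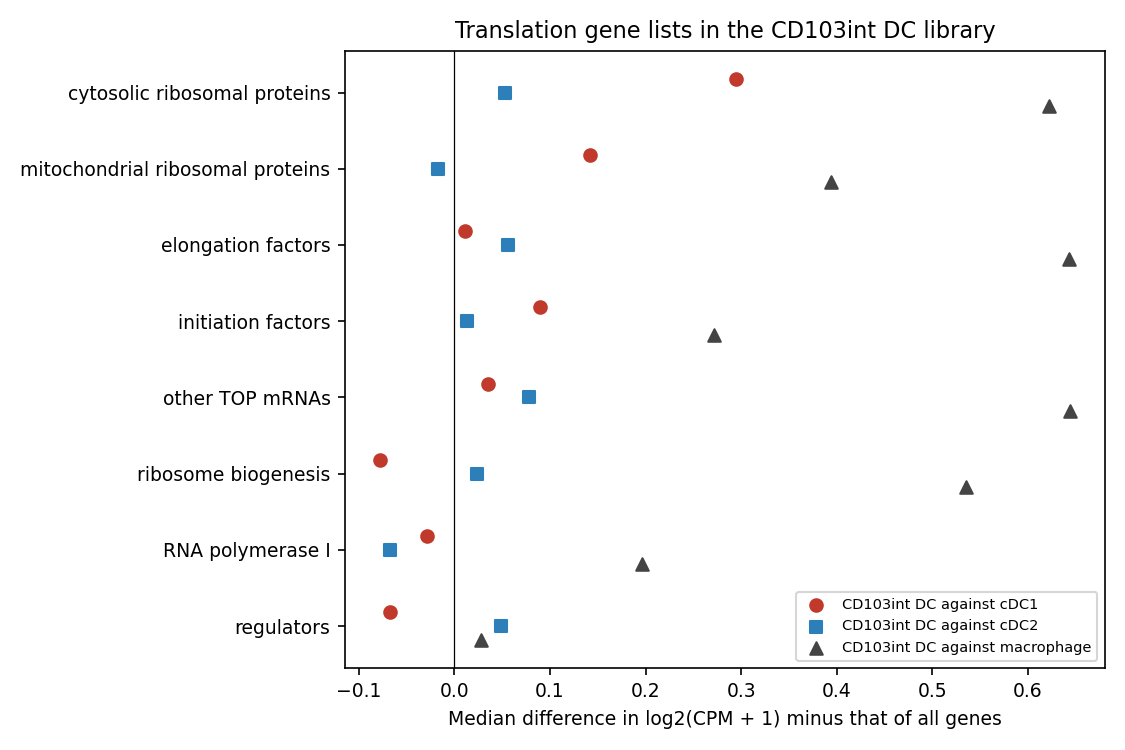
Median difference in log2(CPM + 1) minus that of all genes, for 8 gene lists (rows) in CD103int DC against cDC1 (circles), cDC2 (squares) and macrophages (triangles). Cytosolic ribosomal proteins lie at 0.29, 0.05 and 0.62, and 3 other lists lie above 0.5 against macrophages but within 0.1 of 0 against both conventional DC.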

How the data were processed

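The authors deposited 1 table with 1 column for each of 4 libraries, whose values are an expression signal, which the name of the deposited table calls filtered, TMM-scaled CPM (TMM is the trimmed mean of M values). Per the labels' protocols, total RNA was treated with DNase I and made into libraries with a directional kit. Aligner, counting program, strand setting and build: not given in the sources used here. Gene identifiers and symbols of all 13976 rows match GENCODE M21 (GRCm38), which gave positions and lengths (the shortest principal transcript of a gene, with coding length counted without the stop codon). Columns were matched to populations by their names, and 0 value columns were left unmatched.

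A step of 0.0174 to 0.0216 CPM between low values was taken as 1 read. Between 70.6% and 79.0% of values in a column were whole multiples at a tolerance of 0.001 of the step, but only 9.52% to 16.7% of the members' values, so reads appear to have been shared between genes and no count test was run. Intervals are 95% intervals on the estimated reads and cover counting error only, since amplified reads with no molecular identifier can come from 1 molecule.

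Differences were taken on log2(CPM + 1), which understates low genes, for genes with at least 10 CPM in the higher library, and read against the same measure over all genes compared. Folds of single genes are ratios of CPM. Members named are those at least 2-fold apart in any pair, the 3 highest and 3 lowest of each pair, the 5 highest per kb, and a list of members with known roles or paralogs. The members, lists and markers were chosen with earlier results of these data known. Alternatives were 3 other scalings, a pseudocount of 0.1, and other minimum levels. Those on pseudogene rows, and all on the make-up of the pool, were chosen after seeing the data. Values of some single genes are not reported here. The calculation was tested on simulated data. Python 3.11.15 with numpy 2.4.6, pandas 2.3.3, scipy 1.17.1 and matplotlib 3.10.9 was used.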

Additional observations from a re-analysis of the deposited data

How the results depend on the processing

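The median differences of the members kept their sign under every scaling, pseudocount, minimum level and pseudogene setting tried. Of 488 differences of single members, 54 had different signs between scalings, none of them 1.5-fold or more as deposited. Their sizes moved with the scaling between columns. With every column set to the same total, the medians were 0.22 (CD103int DC against cDC1), 0.81 (CD103int DC against macrophage), -0.17 (cDC1 against cDC2), 0.57 (cDC1 against macrophage) and 0.76 (cDC2 against macrophage). The members at least 1.5-fold higher then numbered 4, 69, 38 and 61 in CD103int DC against cDC1, CD103int DC against macrophage, cDC1 against macrophage and cDC2 against macrophage, and those lower in cDC1 against cDC2 numbered 2, against 14.3%, 23.6%, 33.2%, 19.2% and 15.1% of all genes. With median-ratio size factors the medians were 0.63 (CD103int DC against macrophage), -0.24 (cDC1 against cDC2), 0.33 (cDC1 against macrophage) and 0.59 (cDC2 against macrophage), with 17 and 40 members higher in the last 2 of these and 2 lower in cDC1 against cDC2, against 22.3%, 10.9% and 17.0% of all genes. With equal totals over the other genes, leaving out ribosomal protein, mitochondrial and ribosomal RNA entries, the medians were 0.12, 0.78, -0.078, 0.64 and 0.74 in the order of the first set, with 2, 63, 51 and 56 members higher and 1 lower, against 12.1%, 21.9%, 37.1%, 17.8% and 12.99% of all genes. These moves come from the factors themselves, since 1 factor per column shifts all genes alike.

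With no minimum level, 1 member was at least 1.5-fold higher in CD103int DC than in cDC2 and 1 lay 1.25-fold off the median member. With a minimum of 100 CPM, 0 members were higher and 2 lower in cDC1 against cDC2, and those 1.25-fold off the median member numbered 8 (CD103int DC against cDC1) and 6 (cDC1 against cDC2), from fewer genes compared. Without pseudogene rows, 0 members were higher in cDC1 than in cDC2. Without Gm26917, Gm42418 and mitochondrial genes in the total, the shares were 4.75%, 4.50%, 4.58% and 2.88% (CD103int DC, cDC1, cDC2, macrophage). The share with core genes outside the naming rule added is not reported here. No paired analysis was possible because each population had 1 library, and for the same reason no library could be left out. Depth limits little here, since counting error is far below the differences named, while variation between mice, sorts and libraries is unknown.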

Other observations

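Snhg and other host genes hold small nucleolar RNAs, which guide the modification of ribosomal RNA, and are in part TOP mRNAs. In the pairs with CD103int DC they did not follow the ribosomal protein genes. Over the few with at least 10 CPM, their median difference was 0.05 for CD103int DC against cDC1 (4 genes), -0.34 for CD103int DC against cDC2 (5 genes) and -0.10 for CD103int DC against macrophages (4 genes). It was -0.46 for cDC1 against cDC2 (5 genes), 0.05 for cDC1 against macrophages (4 genes) and 0.20 for cDC2 against macrophages (5 genes). These last medians had the sign of those of the members, which were -0.27, 0.20 and 0.49. Gas5 stood at 43.0 CPM in CD103int DC, 38.6 CPM in cDC1, 53.5 CPM in cDC2 and 36.7 CPM in macrophages. Zfas1 stood at 21.3, 12.8, 29.2 and 29.5 CPM in the same order of libraries.

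Among the rows for processed copies, Rps6-ps4 went against its parent gene. It stood at 55.3 CPM in CD103int DC, 106.6 CPM in cDC1, 51.7 CPM in cDC2 and 67.9 CPM in macrophages, high in cDC1, while Rps6 was highest in CD103int DC. Rpl27-ps3 was highest in macrophages, at 62.6, 63.6, 51.2 and 91.7 CPM, beside Rpl27 at 149, 111, 143 and 112 CPM. Among the genes that overlap a member on the opposite strand, Tbc1d8 beside Rpl31 stood at 31.2 CPM in CD103int DC, 100.9 CPM in cDC1, 37.1 CPM in cDC2 and 53.8 CPM in macrophages. These rows were chosen after their values were seen.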
